A study of Mus musculus with 6 samples.

Results

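Killer lectin-like receptors are surface receptors through which natural killer (NK) cells and some T cells read ligands on other cells, and they were examined here in regulatory T (Treg) cells, the CD4+Foxp3+ lymphocytes that restrain immune responses. The set held 9 genes of the 24453 gene symbols in the expression table, chosen by name: Klrg1, Klrd1, Klrk1, Klrc1, Klrc2, Klrb1c, Klrb1b, Klrb1f and Crtam. Earlier results of these data were known when the set was chosen. Crtam encodes an immunoglobulin-superfamily protein and not a lectin, so 8 of the 9 belong to the family that names the set. Those 8 lie on chromosome 6, and Crtam lies on chromosome 9. For a symbol with several transcripts, the transcript with the highest mean level over all libraries was used.

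RNA came from Treg cells sorted from healthy female C57BL/6 mice, in 3 miR-27 Tg libraries, which carry a miR-27 transgene, and 3 WT libraries, whose genotype label reads WT Tg. The series text places the overexpression of miR-27a in Treg cells, and its title names the mice Foxp3cre het, so Cre is driven from the Foxp3 locus. Foxp3 is X-linked, and in a heterozygous female only some Treg cells use the Cre allele. The sources used here give neither the age of the mice nor whether the sort kept to Cre-expressing cells. The labels do not tie libraries to individual mice, so the p-values reflect only how far these libraries differ among themselves, and that spread may be technical.

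The receptors differ in what they bind and in the signal they send. Klrg1 carries an inhibitory motif and binds classical cadherins, and in mouse it marks terminally differentiated effector T and Treg cells. Klrd1 (CD94) pairs with Klrc1 (NKG2A, inhibitory) or Klrc2 (NKG2C, activating) and reads the non-classical MHC molecule Qa-1. Klrk1 (NKG2D) is an activating receptor for stress-induced ligands. The Klrb1 genes encode the Nkrp1 receptors: Klrb1c is NK1.1, the marker by which C57BL/6 NK cells are usually recognised, Klrb1f is an activating form and Klrb1b an inhibitory form. Crtam, induced on activated T cells, binds the adhesion molecule Cadm1.

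A microRNA pairs with its target transcripts mainly through its seed, bases 2 to 8, and lowers their level or translation. The seed is shown in capitals in the mature strand (RefSeq, GRCm38.p6, chr8:84208727-84208747, plus strand), since it defines the sites searched in the receptor transcripts.

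miR-27a-3p: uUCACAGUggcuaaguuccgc

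Matches to that seed were found in the 3′ UTRs of 3 of the 9 receptor genes, against 16.5% of 11817 genes tested for expression and searched in the same way. The median 3′ UTR searched was 1471 bases in the receptor genes and 1072 bases in the genes tested, and a longer UTR has more room for a match. Klrb1f held 1 site in 1000 bases (chr6:129056586-129056614, plus strand), Klrk1 1 site in 2463 bases (chr6:129612201-129612229, minus strand) and Crtam 2 sites in 3822 bases (chr9:40973430-40973458 and chr9:40970179-40970207, minus strand), in GENCODE M21 on GRCm38. The second Crtam site lies beyond the 3′ end of the Crtam transcript whose level is reported, in a longer annotated 3′ UTR. The sites are given with their surroundings, with the 7 matching bases in capitals. A match is a description of the letters and not evidence that the microRNA binds there.

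Klrb1f: actccaaaatcACTGTGActtttacagat
Klrk1: aaaacagaggaACTGTGAgaactggagaa
Crtam, first: ggatcgtaagtACTGTGAcatgaaaaaaa
Crtam, second: agaggaagtgaACTGTGAatcctgcagtc

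Klrg1, Klrd1, Klrc1, Klrc2, Klrb1c and Klrb1b held no match in the 3′ UTR searched.

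Mir27a and the Treg cell markers were read first as a check of the labels and the sort. Mir27a, the hairpin of miR-27a, had 2921, 2206 and 2339 reads in miR-27 Tg and 9, 13 and 8 in WT. Depth was 34400000 to 38100000 counted reads in miR-27 Tg and 37700000 to 42100000 in WT. Foxp3 had 955, 774 and 777 RPKM (reads per kilobase and per 10000000 counted reads) in miR-27 Tg and 830, 662 and 801 in WT, and Cd4 averaged 2207 ± 88.0 in miR-27 Tg and 1946 ± 85.4 in WT (SD, n = 3). Of 8 CD4 Treg markers tested, 0 passed in limma, and before adjustment 3 were lower in miR-27 Tg at p under 0.05. Ctla4 had 2335 ± 234 RPKM in miR-27 Tg and 3436 ± 324 in WT (adjusted p = 0.0868), and Cd28 503 ± 40.1 in miR-27 Tg and 662 ± 104 in WT (adjusted p = 0.230), and for both the groups did not overlap. Markers of other cell types were also present and are given beside the results. In the test across all genes, 140 of 13621 passed an adjusted p of 0.05, 51 of them higher and 89 lower in miR-27 Tg (limma on log2(RPKM + 1), Benjamini-Hochberg).

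All receptors were expressed at low levels, so few reads stand behind each value. Over the 6 libraries Klrb1f had 733 reads, Klrg1 367, Crtam 352, Klrd1 273, Klrb1c 231, Klrk1 112, Klrb1b 54, Klrc1 22 and Klrc2 1. Of the 9 genes 7 had a mean of at least 1 RPKM and were tested, while Klrc1 and Klrc2 were below it. None of the 7 passed: 0 of 7 had an adjusted p of at most 0.05 by limma, against 1.03% of all genes tested. At an unadjusted p under 0.05, 4 of 7 were lower in miR-27 Tg (Klrg1, Klrb1c, Klrb1f and Crtam), against 8.43% of all genes, and 1 of 7 was higher (Klrd1), against 4.59%. For 3 of 7 (Klrg1, Klrb1c and Klrb1f) every miR-27 Tg library was below every WT library, against 11.6% of all genes, and for 0 of 7 every miR-27 Tg library was above, against 6.84%. The median log2 fold change of the 7 was -0.76, and that of all genes tested was -0.01. Since the set was chosen with earlier results of these data known, its shares against all genes are not independent evidence. In bulk samples such as these, fewer cells that express a receptor and less of its RNA per cell cannot be told apart.

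**Figure D1:**
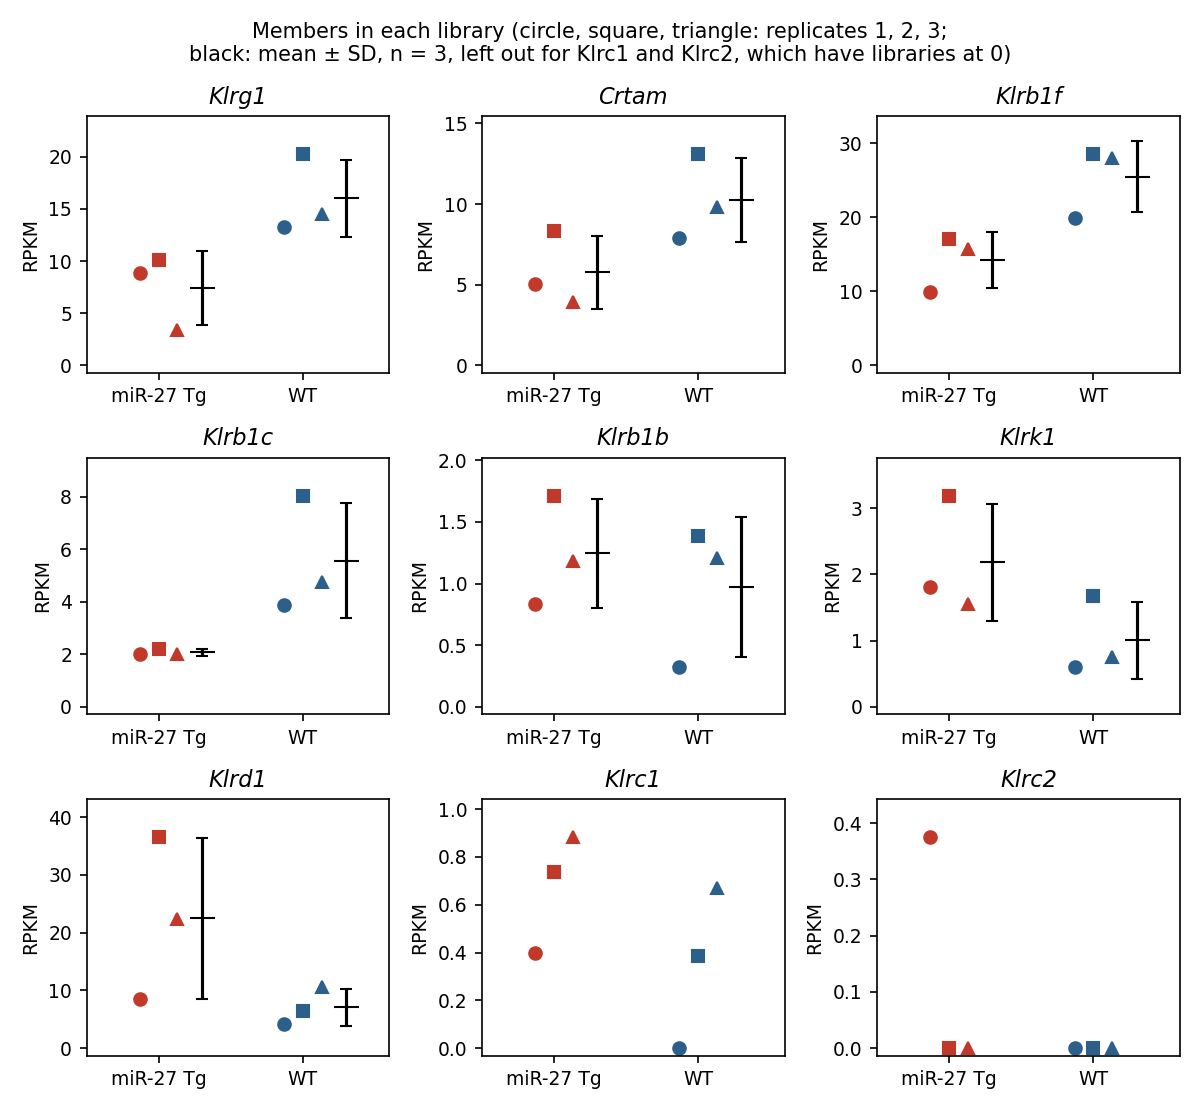
RPKM of the 9 receptor genes in each of 3 miR-27 Tg and 3 WT libraries, with the mean ± SD in black except for Klrc1 and Klrc2, which have libraries at 0. For Klrg1, Klrb1f and Klrb1c the highest miR-27 Tg library (10.1, 17.0 and 2.21 RPKM) lies below the lowest WT library (13.3, 19.9 and 3.90), and for the other genes the groups overlap.

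Among the inhibitory receptors, Klrg1 (NM_016970, mm10 chr6:122270597-122282833, minus strand) had 8.90, 10.1 and 3.42 RPKM in miR-27 Tg replicates 1 to 3 and 13.3, 20.2 and 14.5 RPKM in WT replicates 1 to 3. All 3 miR-27 Tg libraries were below all 3 WT libraries, and miR-27 Tg replicate 3 was the lowest. These levels rest on 46, 47 and 16 reads in miR-27 Tg and on 76, 108 and 74 reads in WT. The log2 fold change was -1.09 (SE 0.35, 95% confidence interval -1.91 to -0.28, adjusted p = 0.230 by limma), and it was -0.68 without miR-27 Tg replicate 3. Klrb1b, the inhibitory Nkrp1 receptor, had 0.834, 1.71 and 1.19 RPKM in miR-27 Tg and 0.324, 1.38 and 1.20 RPKM in WT. The groups overlapped, with 3 to 13 reads per library. Its log2 fold change was 0.22 (interval -0.54 to 0.97, adjusted p = 0.860 by limma), which covers a change of either sign, and without WT replicate 1 it was -0.05.

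The activating Nkrp1 receptors both had lower values in miR-27 Tg. Klrb1f (NR_024262, chr6:129045901-129057471, plus strand) had the highest level of the set in WT, with 9.87, 17.0 and 15.7 RPKM in miR-27 Tg and 19.9, 28.5 and 28.0 RPKM in WT. The groups did not overlap, and replicate 1 was the lowest of each. The log2 fold change was -0.82 (SE 0.23, interval -1.36 to -0.28, adjusted p = 0.178 by limma). The transcript used is annotated as non-coding. The coding variant NM_153094 had 9.73, 17.4 and 15.4 RPKM in miR-27 Tg and 20.3, 27.8 and 28.3 RPKM in WT.

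Klrb1c (NM_001159904, chr6:128778485-128788641, minus strand) had 2.002, 2.21 and 1.99 RPKM in miR-27 Tg and 3.90, 8.04 and 4.75 RPKM in WT. The 3 miR-27 Tg values lay close together, at 18 to 20 reads each, below WT libraries with 43 to 83 reads. The log2 fold change was -1.05 (SE 0.27, interval -1.67 to -0.42, adjusted p = 0.140 by limma), and on log2(RPKM + 0.1) it was -1.32. An annotated gene, Gm44511, covers 13.9% of the exonic bases of Klrb1c and 26.9% of those of Klrb1b, so part of their reads cannot be assigned to 1 gene.

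Crtam (NM_019465, chr9:40972798-41004628, minus strand) had 5.05, 8.30 and 3.92 RPKM in miR-27 Tg and 7.91, 13.1 and 9.79 RPKM in WT. The groups overlapped at miR-27 Tg replicate 2, which was above WT replicate 1. The log2 fold change was -0.76 (SE 0.28, interval -1.42 to -0.11, adjusted p = 0.300 by limma). Its ligand Cadm1 had 1.15 to 3.41 RPKM in miR-27 Tg and 0.410 to 3.73 in WT, and Scrib, a polarity protein that Crtam engages, had 147 to 174 RPKM in miR-27 Tg and 116 to 157 in WT.

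**Figure D2:**
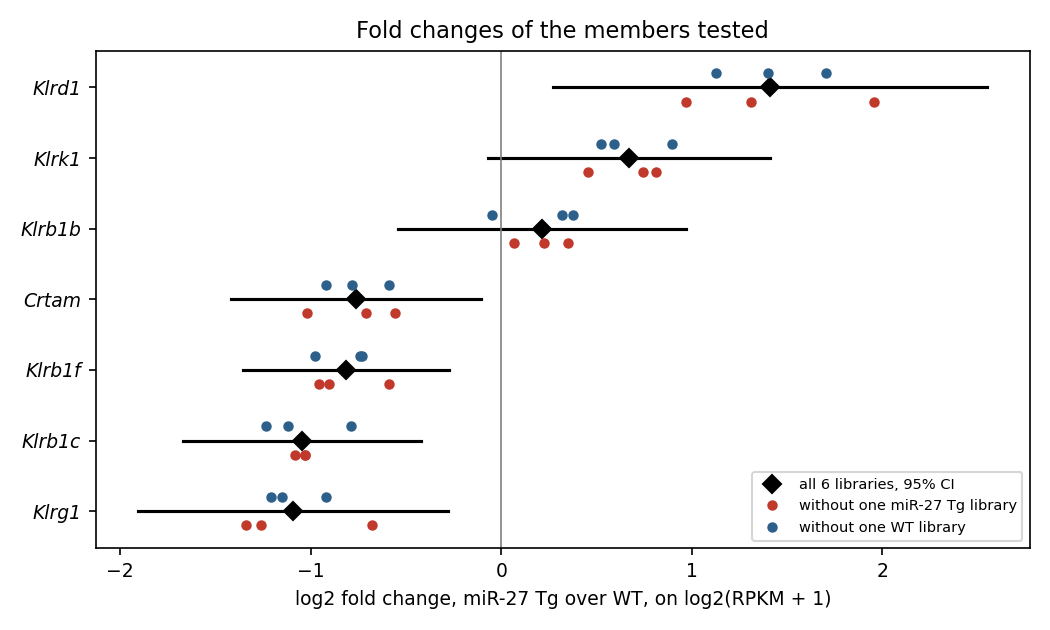
Log2 fold change (miR-27 Tg over WT, on log2(RPKM + 1)) of the 7 receptor genes tested, as diamonds with 95% confidence intervals; coloured points leave out 1 library each. Klrd1 is the highest at 1.41 and Klrg1 the lowest at -1.09, and Klrb1b alone has a point on the other side of 0.

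Of the CD94 and NKG2 receptors, Klrd1 and Klrk1 had positive log2 fold changes that did not pass, and Klrc1 and Klrc2 were not tested. Klrd1 (NM_010654, chr6:129591811-129598775, plus strand) had 8.57, 36.6 and 22.3 RPKM in miR-27 Tg and 4.16, 6.52 and 10.5 RPKM in WT. miR-27 Tg replicates 2 and 3 were above all WT libraries, while miR-27 Tg replicate 1 was below WT replicate 3. The highest miR-27 Tg library was 4.27 times the lowest. The log2 fold change was 1.41 (SE 0.49, interval 0.27 to 2.55, adjusted p = 0.269 by limma), and it was 0.97 without miR-27 Tg replicate 2 and 1.95 without miR-27 Tg replicate 1.

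The chains that pair with CD94 were near the limit of detection. Klrc1 had 3, 5 and 6 reads in miR-27 Tg and 0, 3 and 5 in WT, or 0.399, 0.736 and 0.883 RPKM in miR-27 Tg and 0, 0.386 and 0.672 in WT. The 0 in WT replicate 1 allows up to 3 reads, or 0.361 RPKM, by counting error alone. Klrc2 had 1 read in miR-27 Tg replicate 1 and 0 in the other 5 libraries, where 3 reads would be 1.02 to 1.25 RPKM. Per kilobase, Klrd1 exceeded the sum of Klrc1, Klrc2 and Klrc3 by 7.31, 31.1 and 25.3 times in miR-27 Tg and by 16.9 and 9.79 times in WT replicates 2 and 3, the sum being 0 in WT replicate 1. Of the 50-base stretches of Klrc1 transcripts, 38.6% also occur in another gene, mainly Klrc2, so reads of these genes may have been split. For Klrg1, Klrd1, Klrk1, Klrb1f and Crtam 0 of these stretches were shared. H2-T23, which encodes Qa-1, had 1324 to 1617 RPKM in miR-27 Tg and 1311 to 1528 in WT (log2 fold change 0.05, adjusted p = 0.909 by limma).

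Klrk1 (NM_001286018, chr6:129610323-129623864, minus strand) had 1.81, 3.19 and 1.55 RPKM in miR-27 Tg and 0.597, 1.68 and 0.750 RPKM in WT. WT replicate 2 was above miR-27 Tg replicate 3, so the groups overlapped, with 17 to 35 reads in miR-27 Tg and 8 to 21 in WT. The log2 fold change was 0.67 (SE 0.32, interval -0.07 to 1.41, adjusted p = 0.440 by limma), and it was 1.11 with the value of 1 read as pseudocount. Hcst (DAP10), an adaptor through which NKG2D signals, was abundant. It had 490, 589 and 651 RPKM in miR-27 Tg and 529, 765 and 797 in WT (log2 fold change -0.26, adjusted p = 0.616 by limma). Its level was 185 to 420 times that of Klrk1 in miR-27 Tg and 457 to 1062 times in WT.

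**Figure D3:**
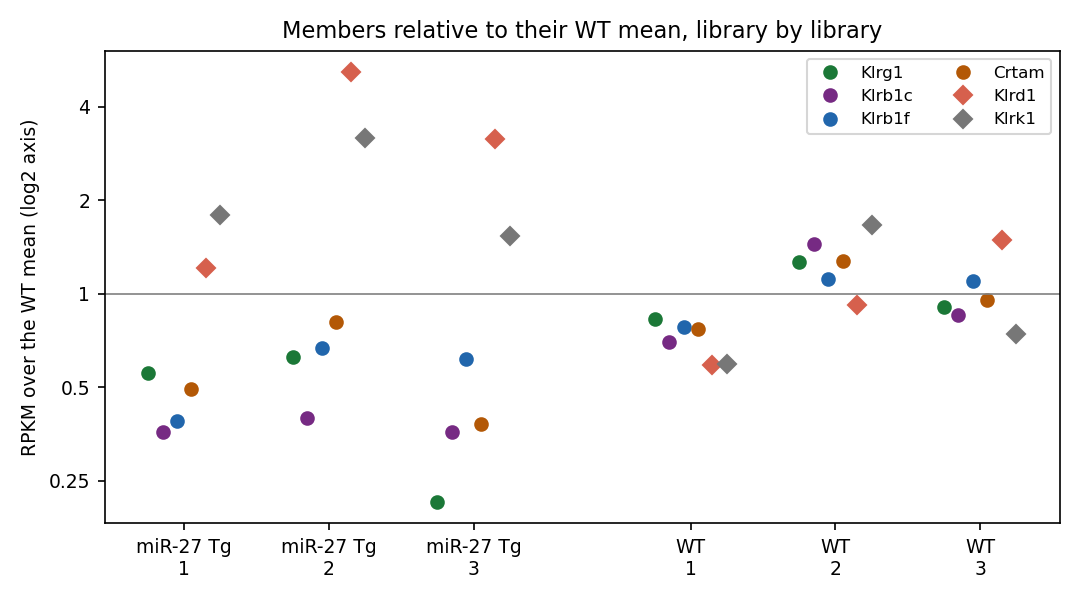
RPKM of 6 receptor genes in each library divided by the gene's WT mean (log2 axis), miR-27 Tg libraries at left. Klrg1, Klrb1c, Klrb1f and Crtam lie at 0.214 to 0.809 of their WT mean in the miR-27 Tg libraries, and Klrd1 and Klrk1 at 1.21 to 5.18 times.

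The plot of levels relative to the WT mean shows these patterns library by library. Over the 6 libraries the Pearson correlation of log2 levels was 0.93 between Klrg1 and Crtam, 0.87 between Klrb1c and Crtam and 0.86 between Klrb1c and Klrb1f. Klrd1 and Klrg1 had -0.57. These coefficients include the difference between the groups and are given as a description.

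Outside the set, the genes whose levels over the 6 libraries were most like those of Klrg1 were Gm3704 (r = 0.99), Kcnip4 (0.99), Cldn12 (0.99) and the microRNA hairpin Mir7088 (0.98). For Klrk1 they were Sp100 (0.99), Ifnar1 (0.98), Mx2 (0.98) and Ifit3b (0.98), of which Ifnar1 is a chain of the type I interferon receptor and Sp100, Mx2 and Ifit3b are interferon-induced genes. Mx2 had 34.7, 59.4 and 37.2 RPKM in miR-27 Tg and 16.4, 30.4 and 18.7 in WT (log2 fold change 0.98, adjusted p = 0.165 by limma). Many genes reach such a likeness over 6 libraries: 48 had r of at least 0.95 with Klrg1, 97 with Klrd1 and 29 with Klrk1.

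For Klrd1 the most alike were Ptafr (0.99), Hebp1 (0.99), Cfp (0.99) and P2ry13 (0.99). Ptafr, the receptor of platelet-activating factor, had 2.96, 9.82 and 6.23 RPKM in miR-27 Tg and 1.90, 2.80 and 3.65 in WT, and Cfp, the complement protein properdin of myeloid cells, had 49.3, 77.6 and 70.6 in miR-27 Tg and 39.5, 44.3 and 49.98 in WT. The order of the libraries by Klrd1 was also their order by Fcer1g, the signalling chain of Fc receptors on myeloid and NK cells, which had 28.6, 120 and 62.0 RPKM in miR-27 Tg and 15.7, 23.04 and 45.7 in WT. Siglech, a marker of plasmacytoid dendritic cells, had 27.4, 330.5 and 153 RPKM in miR-27 Tg and 14.4, 64.4 and 119 in WT. Klra17 (Ly49Q), a lectin-like receptor of those dendritic cells, had 4.5, 46.5 and 23.9 RPKM in miR-27 Tg and 2.04, 9.15 and 14.8 in WT. Cd8b1, a CD8 chain that a sort of CD4+ cells is meant to leave out, had 92.7, 169.5 and 145 RPKM in miR-27 Tg and 60.3, 91.5 and 92.0 in WT (log2 fold change 0.72, adjusted p = 0.258 by limma). The other CD8 chain, Cd8a, had 9.76, 26.3 and 13.7 RPKM in miR-27 Tg and 9.84, 19.7 and 19.1 in WT (log2 fold change -0.02, adjusted p = 0.991), and its groups overlapped. Over the 6 libraries Klrd1 correlated at 0.98 with Fcer1g, 0.97 with Cd8b1 and 0.90 with Siglech. It was less alike to Itgam (0.755), Cd8a (0.60), S100a9 (0.57), Prf1 (0.57) and Eomes (0.54). Klrb1b also followed some of these genes, with 0.90 for Siglech, 0.89 for Klra17 and 0.87 for Cd8a. The part of cells of other types in the level of Klrd1 was not tested.

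**Figure D4:**
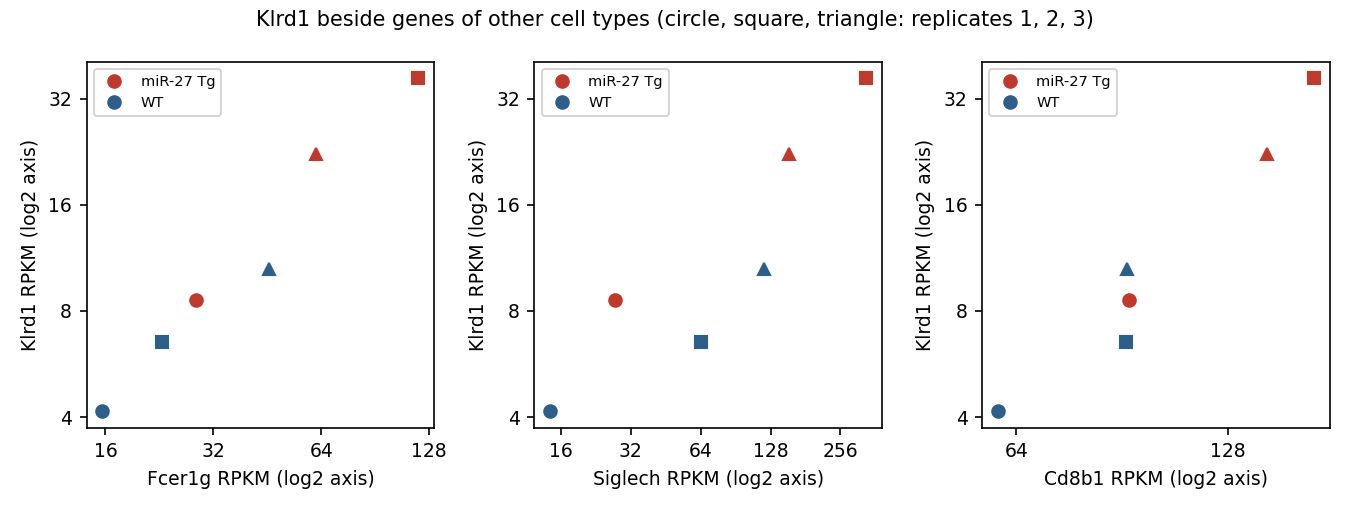
Klrd1 RPKM against Fcer1g, Siglech and Cd8b1 RPKM in the 6 libraries (log2 axes). miR-27 Tg replicate 2 is the highest in all panels and WT replicate 1 the lowest.

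Markers of NK cells, on which most of these receptors are best known, were low. Of 16 listed, 15 matched a symbol, and without Il2rb, which Treg cells express strongly, the summed level of the other 14 was 69.8 to 90.0 RPKM in miR-27 Tg and 69.3 to 94.1 in WT. Ncr1 (NKp46), the defining receptor of NK cells, had 1.62, 1.20 and 0.799 RPKM in miR-27 Tg and 0, 0.350 and 0.730 in WT. Klra8, an NK receptor, was at 0 in 4 of the 6 libraries. In limma 0 of 9 NK markers passed, and before adjustment 2 were lower and 1 was higher in miR-27 Tg at p under 0.05. Cd160 had 17.1 ± 1.75 RPKM in miR-27 Tg and 32.0 ± 5.15 in WT (SD, n = 3, adjusted p = 0.0566, and 0.0420 with median-ratio scaling and 0.0374 with array weights), and Itga2 (CD49b) 2.06 ± 0.260 in miR-27 Tg and 5.06 ± 0.933 in WT (adjusted p = 0.102). Fcgr3 had 6.985 ± 1.003 RPKM in miR-27 Tg and 3.27 ± 1.71 in WT (adjusted p = 0.238), and Il2rb 1815 ± 117 in miR-27 Tg and 2064 ± 132 in WT (adjusted p = 0.495).

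Of 14 myeloid markers tested, 1 passed, with higher levels in miR-27 Tg. Before adjustment 8 were higher at p under 0.05, against 4.59% of all genes tested. Of the 14 log2 fold changes 13 were positive (median 1.01), against 6397 of 13621 over all genes (median -0.01). Lyz2, S100a9 and Siglech were all highest in miR-27 Tg replicate 2, so the 14 markers are not separate observations. Their summed level was 741 to 1745 RPKM in miR-27 Tg and 604 to 1014 in WT. Itgam (CD11b) rose to 16.4 ± 0.583 RPKM in miR-27 Tg, against 4.41 ± 0.487 in WT (adjusted p = 0.0118 by limma), while Lyz1, S100a9 and Csf1r had adjusted p of 0.172, 0.156 and 0.247. The call for Itgam ended without miR-27 Tg replicate 3, WT replicate 1 or WT replicate 3, with adjusted p of 0.0703, 0.0536 and 0.0530. Of 9 B cell markers tested and of 5 markers of CD8, NKT and gamma-delta T cells tested 0 passed by limma, with 1 of each at an unadjusted p under 0.05. Among them Cd79b, a chain of the B cell receptor, had 78.9 ± 13.6 RPKM in miR-27 Tg and 99.1 ± 15.2 in WT, and Gzmk 3.512 ± 1.595 in miR-27 Tg and 1.62 ± 0.643 in WT. Their part in the levels of the other receptors was not tested.

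Of other lectin-like receptors on chromosome 6, 22 were listed, of which Klrg2 lies outside the gene complex that holds the Klrb1, Klrc and Klra genes; 6 were tested and 0 passed by limma, with 1 (Clec7a) at an unadjusted p under 0.05. Klra17 was the 1 Klra (Ly49) gene above the filter, and Klrb1, Klrb1a and Klrc3 were below it. Clec7a (dectin-1), a receptor of myeloid cells, had 12.3 ± 2.72 RPKM in miR-27 Tg and 6.03 ± 2.80 in WT (adjusted p = 0.208), and Clec1b 2.495 ± 1.249 in miR-27 Tg and 1.01 ± 0.683 in WT (adjusted p = 0.454). Cd69, an activation marker, was by far more abundant than the receptors of the set, with 915 ± 209 RPKM in miR-27 Tg and 1068 ± 194 in WT (adjusted p = 0.684).

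Ligands of the receptors were measured in the same libraries, where markers of other cell types were also present. The part of those cells in the ligand levels was not tested. At an adjusted p of 0.05, 0 of 11 tested passed in limma; 4 were lower in miR-27 Tg at an unadjusted p under 0.05. These were NKG2D ligands. H60b had 22.0, 22.2 and 16.9 RPKM in miR-27 Tg and 30.5, 31.3 and 25.1 in WT (log2 fold change -0.49, adjusted p = 0.240), and all miR-27 Tg libraries were below all WT libraries. Raet1a, Raet1b and Raet1d had 0.619 ± 0.617, 0.770 ± 0.767 and 0.836 ± 1.07 RPKM in miR-27 Tg and 1.70 ± 0.406, 2.11 ± 0.504 and 2.27 ± 0.654 in WT (adjusted p = 0.370, 0.328 and 0.373). Raet1a and Raet1b had the same number of reads in every library (2, 7 and 1 in miR-27 Tg and 10, 13 and 8 in WT) and Raet1d nearly the same, and their annotated positions overlap, so these 3 are not separate measurements. Ulbp1 (MULT1) had 38.4, 30.6 and 38.2 RPKM in miR-27 Tg and 33.9, 24.0 and 29.6 in WT (log2 fold change 0.29, adjusted p = 0.541). The Nkrp1 ligands were abundant: Clec2d (Clr-b), which binds Klrb1b, had 773 to 1046 RPKM in miR-27 Tg and 848 to 1018 in WT, and Clec2i (Clr-g), which binds Klrb1f, had 281 to 362 in miR-27 Tg and 303 to 410 in WT. Cdh1 (E-cadherin), a ligand of Klrg1, had 0.952, 17.1 and 6.91 RPKM in miR-27 Tg and 1.94, 4.09 and 6.07 in WT.

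Of 18 adaptors and signalling partners tested, 0 passed in limma, and Syk was the 1 with an unadjusted p under 0.05. Syk, the kinase recruited by receptors that use Tyrobp (DAP12) or Fcer1g, had 29.8 ± 11.2 RPKM in miR-27 Tg and 12.1 ± 6.16 in WT (adjusted p = 0.175). Tyrobp had 51.7, 415 and 250 RPKM in miR-27 Tg and 32.3, 86.4 and 167 in WT, and Plcg2 11.3 ± 7.77 in miR-27 Tg and 5.11 ± 1.91 in WT (adjusted p = 0.467). Syk, Tyrobp, Fcer1g and Plcg2 are also abundant in myeloid cells. Zap70, the T cell kinase, had 776 ± 31.2 RPKM in miR-27 Tg and 882 ± 46.8 in WT (adjusted p = 0.417). Ptpn6 and Inpp5d, the phosphatases recruited by inhibitory receptors, had log2 fold changes of 0.20 and -0.04 (adjusted p = 0.483 and 0.933).

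Of 17 transcription factors of NK and effector lymphocytes tested, 1 fell and 16 did not pass by limma. Rora, a nuclear receptor needed for innate lymphoid cells, fell to 27.2 ± 6.13 RPKM in miR-27 Tg, against 59.0 ± 3.81 in WT (adjusted p = 0.0292). It passed without miR-27 Tg replicate 2 (adjusted p = 0.0385) and not without any other single library (0.0677 to 0.123), nor without the filter on low values (0.0677). Prdm1 (Blimp-1), a regulator of effector Treg cells, had 20.7 ± 3.93 RPKM in miR-27 Tg and 37.3 ± 6.94 in WT (adjusted p = 0.118). Nfil3, needed for NK cell development, had 85.8 ± 13.9 in miR-27 Tg and 161 ± 55.6 in WT (adjusted p = 0.214, and 0.0354 without WT replicate 2), and Ikzf2 403.5 ± 51.8 in miR-27 Tg and 585 ± 153 in WT (adjusted p = 0.290). Tbx21 and Eomes, the T-box factors of NK cells, had log2 fold changes of -0.29 and 0.32 (adjusted p = 0.718 and 0.737).

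Effector molecules that accompany Klrg1 on effector Treg cells were listed with their earlier results known, so their direction is not independent evidence. Of 20 tested, 6 fell (Itgae, Tigit, Gzmb, Areg, Ccr8 and Itgb8), 0 rose and 14 did not pass. Over all genes tested 89 of 13621 fell. The median log2 fold change of the 20 was -0.68, against -0.01 for all genes tested. The 6 had log2 fold changes of -2.05, -1.39, -2.02, -1.07, -1.23 and -1.09. Without 1 library the number that fell was 2, 3 and 1 when miR-27 Tg replicate 1, 2 or 3 was left out and 1, 3 and 0 when WT replicate 1, 2 or 3 was left out. Without the filter on low values 2 fell, and Gzmb, Areg, Ccr8 and Itgb8 no longer passed (adjusted p = 0.0802, 0.0558, 0.0520 and 0.0719); Gzmb also did not pass without the trend (0.0720). Over the 20 the log2 fold changes ran from -2.05 (Itgae) to 0.10 (Il2ra). Klrg1, at -1.09, did not pass. Its standard error was 0.35, against 0.15 to 0.33 for the 6 genes that fell and 0.365 for Il10, which did not pass. The 6 were picked by passing the threshold, which favours large changes and small errors, so Klrg1 is set beside them only as a description.

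Promoters of Klrb1f and Klrb1b are shown because the genes are close relatives of 1 family and differed in their fold changes, although that difference was not tested. Their longest shared run, 22 bases, is in capitals and begins 68 bases before the annotated start of Klrb1f and 58 bases before that of Klrb1b (RefSeq, GRCm38.p6, chr6:129045651-129045950, plus strand, and chr6:128826266-128826565, minus strand). No other gene in the promoter table held the run, which was found in 2 genes.

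Klrb1f: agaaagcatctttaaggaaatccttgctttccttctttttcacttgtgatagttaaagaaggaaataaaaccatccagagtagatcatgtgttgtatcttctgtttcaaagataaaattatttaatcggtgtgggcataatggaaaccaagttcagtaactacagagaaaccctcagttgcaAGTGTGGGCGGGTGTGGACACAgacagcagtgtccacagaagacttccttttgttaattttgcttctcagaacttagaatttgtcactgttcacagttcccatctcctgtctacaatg
Klrb1b: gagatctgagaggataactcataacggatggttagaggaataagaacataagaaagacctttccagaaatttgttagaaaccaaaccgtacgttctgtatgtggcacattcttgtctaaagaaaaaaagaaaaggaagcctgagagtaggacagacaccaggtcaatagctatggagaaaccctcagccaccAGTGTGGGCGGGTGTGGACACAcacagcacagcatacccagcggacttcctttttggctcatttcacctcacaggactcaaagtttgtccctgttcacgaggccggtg

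The run holds GGGTGTGG, a motif of Krüppel-like factors, which was in 3.56% of 32851 promoters (searched on both strands). Of the 6 receptor genes with a promoter in the table, 2 held it. These were Klrb1f and Klrb1b, which share the run, so that count follows from the choice of the run. The RUNX motif TGTGGT was in 16.8% of promoters and in 4 of the 6 (Klrb1c, Klrc1, Klrc2 and Klrk1), the AP-1 motif TGANTCA in 7.81% and in 2 of the 6 (Klrc2 and Klrk1), and the T-box motif AGGTGT in 13.7% and in 0 of the 6. The percentages count promoter entries, while a receptor gene counts once if any of its entries matched, so the 2 are not in the same unit. A match describes only the letters of the window searched.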

How the data were processed

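RNA-seq of sorted Treg cells in 3 miR-27 Tg and 3 WT libraries was analysed from 1 deposited table. Per the submitters' processing notes, the tools were STAR 2.2.0c and HOMER and the build was mm10 (GRCm38). The authors deposited RPKM values: reads in exons of mm10 RefSeq transcripts were counted on both strands and library totals set to 10000000, per the file headers. Reads of overlapping genes on opposite strands therefore cannot be told apart. The sources used here do not say how reads with several positions were handled.

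Low values (200 to 4000 bases, at most 20 reads) were whole multiples of the value of 1 read in 100% of cases, within 0.1 read, which gave depth and read numbers. The highest-mean transcript per symbol was kept (24453 symbols), and 13621 genes with a mean of at least 1 RPKM were tested with limma 3.58.1 in R 4.3.3 (limma-trend, log2(RPKM + 1), two-sided, Benjamini-Hochberg over all genes, threshold 0.05). The test was also run on data simulated with the same dispersion for every gene, which cannot show how it behaves for low and variable genes. Fold changes on the log2(RPKM + 1) scale understate changes of low genes. Intervals cover the spread between libraries, and the limit of 3 reads for a count of 0 covers counting error only.

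The genes and lists were chosen with earlier results of these data known. Named are all 9 receptors, in each list the genes past the threshold and the 4 with the smallest adjusted p, and for Klrg1, Klrd1 and Klrk1 the 4 most correlated genes; Tbx21, Eomes, the adaptors Hcst, Tyrobp, Ptpn6, Inpp5d and Scrib, the ligands, Siglech, Ncr1 and Klra8 were added for their roles after their values were seen. Equal replicate numbers were not taken as pairs. H60a, Trdc, Tcrg-C1 and Trdv4 matched no symbol, nor did Cd244a and Emr1, other names of the listed Cd244 and Adgre1. Sequences come from RefSeq and GENCODE M21 tables, with promoters for 6 of the 9 receptors. For the B cell list, 1 gene that the rule names is not reported here.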

Additional observations from a re-analysis of the deposited data

How the results depend on the processing

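Results were recomputed with pseudocounts of 0.1, 5 and the value of 1 read, no filter and a filter of 5 RPKM, median-ratio scaling, no trend, array weights, a replicate block, the longest transcript per symbol, and without each library in turn. The number of receptor genes past the threshold was 0 in each of these except with the replicate block, where it was 1: Klrb1f (adjusted p = 0.0409 by limma). Among the other named genes, Cd8b1 (0.0274) and Cd160 (0.0413) passed with that block, and the effector Treg genes that fell were 8 with it and with array weights, against 6. The number of all genes past the threshold was 47 without the filter, 225 with array weights and 276 with the replicate block, against 140, and 4 to 56 when 1 library was left out. Deviations of same-numbered libraries correlated across genes with r of 0.368, 0.097 and 0.037 for replicates 1 to 3, and miR-27 Tg replicates 2 and 3 correlated best with another number. The fold changes of Klrg1, Klrd1, Klrk1, Klrb1c, Klrb1f and Crtam kept their sign under all alternatives that gave a value, with ranges of -1.34 to -0.68, 0.97 to 1.95, 0.26 to 1.11, -1.32 to -0.56, -0.98 to -0.59 and -1.02 to -0.51. Without WT replicate 1 the sign of Klrb1b (-0.049, against up to 0.375 without WT replicate 2) and of Blk (0.017) turned, and the cause was not tested. Of the 649 alternative values of the other named genes, 40 no longer passed and 6 newly passed. With a filter of 5 RPKM Klrk1, Klrb1c and Klrb1b gave no value. Klrb1b, Klrc1 and Klrc2 rest on at most 13 reads per library, which limits the precision of their values.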
